A study of Mus musculus with 15 samples.

Results

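Choroid plexus RNA of 5 mice heterozygous for Add1 was compared with that of 5 wild-type mice, which are 10 of the 15 arrays of the series; the other 5 come from Add1 null mice. All animals are labelled male, 3 weeks old and of strain C57BL/6J, an age chosen by the study to precede the onset of hydrocephalus. Heterozygous animals carry 1 and wild-type animals 2 wild-type alleles of Add1. The sources used here do not give how the allele was altered or whether every cell carries the alteration. Each animal gave 1 Affymetrix array, and whether its tissue came from the fourth ventricle alone is not clear from the design text. Of 19938 named genes, each read by its brightest probe set, 9968 exceeded the median value in at least 5 of the 10 arrays and were tested. The question is how far the choroid plexus transcriptome moves when 1 allele is lost, and, where no change is called, how large a change the 95% interval of each gene still allows.

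Add1 encodes alpha-adducin, a protein of the membrane skeleton that caps the fast-growing ends of actin filaments and recruits spectrin to them, in complexes with beta-adducin or gamma-adducin. The choroid plexus is a frond of blood vessels and stroma covered by an epithelium that secretes cerebrospinal fluid into the brain ventricles. That epithelium carries ion pumps and cotransporters on its apical membrane, tight junctions at its borders and tufts of cilia, and its filament and spectrin networks hold these domains in place.

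The arrays carried the RNA of choroid plexus epithelium. Ttr, the thyroxine carrier that this epithelium makes in bulk, had a mean log2 value of 13.08 ± 0.0870 in wild-type and 13.04 ± 0.0432 in heterozygous animals (SD, n = 5 each), near the top of the measured range. Markers of lymphocytes, granulocytes and red cells were mostly below the filter, with 1 of 15 measured lymphoid and granulocyte genes and 1 of 4 erythroid genes tested. In all 10 arrays the sex-linked genes matched the male label. The difference between any 2 of the 10 arrays had an SD between 0.126 and 0.267 over genes, so no array was a copy of another.

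Heterozygous array 1 stood apart from the other 9 in genes of brain tissue. The mean level of 10 cerebellar neuron markers was 7.66 in that array and between 6.13 and 6.37 in the other 9. The 7 neuron markers averaged 7.50 there against at most 6.70 elsewhere, the 8 oligodendrocyte markers 7.23 against at most 6.77, and the 12 astrocyte and radial glia markers 8.28 against at most 7.76. Gabra6, which encodes a GABA receptor subunit typical of cerebellar granule neurons, read 7.80 in heterozygous array 1 and 5.67, 5.38, 5.52 and 5.15 in the other heterozygous arrays, where wild-type arrays read 5.49 to 5.69. Wild-type array 5 was the highest of the 10 in stroma, with 21 markers averaging 7.62 against 7.04 to 7.43, and in macrophage markers, with 7 averaging 6.09 against 5.54 to 5.86. Choroid epithelium markers varied less. The 31 of them averaged 10.32 in heterozygous array 1, the lowest of the 10, and 10.40 to 10.48 in the other 9. In these bulk samples more cells of a type and more RNA per cell cannot be told apart.

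**Figure D1:**
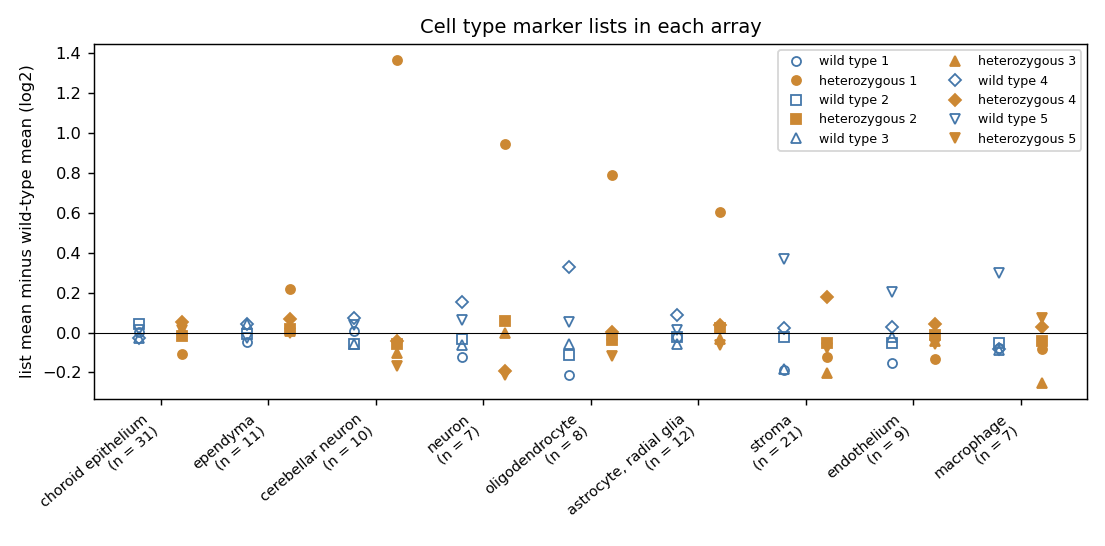
Mean log2 level of each cell type marker list in each of the 10 arrays, drawn as the difference from the mean of the 5 wild-type arrays (open blue symbols wild type, filled orange symbols heterozygous; the number of tested markers is under each list). Heterozygous array 1 lies far above the other arrays for cerebellar neuron, neuron, oligodendrocyte and astrocyte markers, wild-type array 5 is highest for stroma and macrophages, and choroid epithelium markers lie close to 0 in every array.

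Add1 itself gave only a small difference. It was read by 1 probe set, at 7.96, 8.04, 7.78, 7.81 and 8.0 in wild-type arrays 1 to 5 and at 7.68, 7.68, 7.74, 7.92 and 7.79 in heterozygous arrays 1 to 5. The ranges overlapped, since heterozygous arrays 4 and 5 lay above the lowest wild-type array. The heterozygous mean was 0.16 lower on the log2 scale, or 89.8% of the wild-type signal, with a 95% interval from 81.2% to 99.2%. Permuting genotypes over all 252 regroupings of the arrays (exact, two-sided) gave p = 0.0635, where the smallest possible is 0.00794, and the limma adjusted p was 0.794. The exact p fell under 0.05 without wild-type array 3 (-0.19, permutation p = 0.0397) or 4 (-0.18, permutation p = 0.0476) or heterozygous array 4 (-0.20, permutation p = 0.0397). With the number before the dot of each sample's description, whose meaning is not given, as a block, which leaves 7 arrays, the difference was -0.11 (exact permutation p = 0.389). Within number 429 (2 wild-type arrays and 1 heterozygous array) it was -0.32, and within number 432 (2 of each) it was 0.035. Null animals, compared with the same wild-type arrays, read 7.41 to 7.76, a difference of -0.31. Signal thus remained in animals labelled null, and since the sources used here do not give the altered part of Add1, the probe set does not check how much intact transcript an animal made.

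Among all tested genes limma called 0 of 9968 (0%) at an adjusted p under 0.05. At an unadjusted p under 0.05 there were 599 genes (6.01%), of which 322 (3.23%) had a higher and 277 (2.78%) a lower heterozygous mean. With ordinary in place of moderated variances 0 genes were called too, with 580 at an unadjusted p under 0.05. The 5 heterozygous and 5 wild-type arrays did not overlap for 81 genes (0.813%), 41 of them (0.411%) higher and 40 (0.401%) lower in heterozygous animals. For scale, in the fit over all 15 arrays the null animals differed from the same wild-type arrays in 754 of the 9968 genes (7.56%). In that fit 0 genes were called between heterozygous and wild-type animals. Null arrays 1 and 5 do not match their male label in the sex-linked genes, and the count of 754 includes these arrays. The median log2 difference over all genes was 0.002, and the median absolute difference 0.052.

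The intervals were narrow for most genes. The whole 95% interval lay within 1.2-fold of wild type either way, that is within 0.263 on the log2 scale, for 7878 genes (79.0%). It lay within 1.5-fold for 9863 (98.9%) and within 2-fold for 9950 (99.8%). The median gene had a standard error of 0.0650, and its farther bound, the end of the interval that lies farther from 0, was 0.20, a change of 14.6%. Precision followed the signal level: of the 2492 genes with the lowest levels 65.2% had intervals within 1.2-fold, and of the 2493 with the highest levels 89.2%. Each interval is for its own gene and is not adjusted for the number of genes, and at 99% confidence the share within 1.2-fold was 55.4%.

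Heterozygous array 1 set many of the widest intervals. It held the highest of the 10 values in 59 of the 105 genes whose interval left the 1.5-fold range, but in 1336 (13.4%) of all tested genes. Without that array the genes outside the 1.5-fold range numbered 44 and the share within 1.2-fold was 81.8%. Calb1, the calcium buffer of Purkinje cells, read 7.83 in that array and 4.92 to 5.22 in the other 4 heterozygous arrays, so that its interval ran from -0.85 to 1.05 and its difference turned from 0.098 to -0.46 without the array. Nnat, Slc6a13 and Fn1 were wide for other arrays: the fibronectin gene Fn1 read 9.03 in wild-type array 5 and 7.97 in heterozygous array 4, and 6.34 to 7.13 in the other 8. At the narrow end stood Ubtd1, Ndfip2, Pja2, Cnep1r1, Ttbk2 and Rab3ip. Pja2, a ubiquitin ligase, read 9.40 to 9.47 in wild-type and 9.43 to 9.44 in heterozygous arrays, which bounds its difference between -0.087 and 0.091.

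The spread between animals of a genotype was close to equal. The typical SD of a gene, from the median variance, was 0.0942 in wild-type and 0.101 in heterozygous animals, a variance ratio of 1.15. Without heterozygous array 1 the ratio was 0.830.

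**Figure D2:**
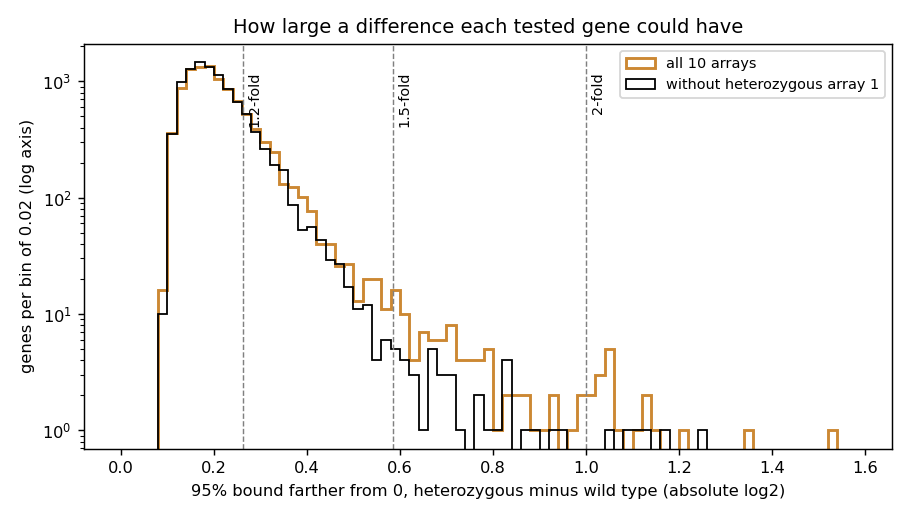
Number of tested genes (log axis) by the 95% bound of the heterozygous minus wild-type difference that lies farther from 0, in bins of 0.02 on the log2 scale, with dashed lines at 1.2-fold, 1.5-fold and 2-fold. Of the 9968 genes 79.0% lie left of the 1.2-fold line; the right tail thins when heterozygous array 1 is left out (black).

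Genes that make the epithelium what it is were held to narrow ranges. Of 31 tested choroid epithelium markers 0 were called, 12 had a higher and 19 a lower heterozygous mean, and 26 had intervals within 1.2-fold. The median difference was -0.016, and without heterozygous array 1 it was 0.0125. Folr1, the folate receptor that loads folate into cerebrospinal fluid, differed by 0.014 (95% interval -0.093 to 0.12), and Kl, the klotho protein released from this epithelium, by 0.004 (-0.11 to 0.11). Otx2, the homeobox factor that maintains choroid plexus identity, differed by -0.016 (-0.11 to 0.083), and Ttr by -0.040 (-0.15 to 0.074). Ttr lay near the top of the measured range, and whether its probe set can still register a change there was not tested. The growth factor Igf2 lay at 0.048 (-0.084 to 0.18) and the serotonin receptor Htr2c at -0.12 (-0.26 to 0.023). Steap1, a gene of the Steap family, was the only marker with an unadjusted p under 0.05. It read 9.49, 9.71, 9.72, 9.55 and 9.45 in wild-type and 9.22, 9.53, 9.21, 9.51 and 9.32 in heterozygous arrays, and its difference of -0.23 (-0.40 to -0.054) had a limma adjusted p of 0.778. The adhesion gene Cdh1 had the widest interval of the list (-0.54 to 0.36), with wild-type array 5 at 6.90 and the other 9 arrays at 5.52 to 6.16.

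Transporters of fluid secretion were bounded as tightly. In the ion and water transport list 31 of 33 tested genes had intervals within 1.2-fold and the median difference was 0.014. Slc12a2, the sodium-potassium-chloride cotransporter NKCC1, differed by 0.014 (-0.10 to 0.13), and Atp1b1, a subunit of the apical sodium pump, by 0.000 (-0.11 to 0.11). The bicarbonate transporters Slc4a2, Slc4a5 and Slc4a10 differed by 0.058 (-0.066 to 0.18), 0.010 (-0.10 to 0.12) and 0.022 (-0.091 to 0.13). Carbonic anhydrase Car2, which supplies bicarbonate, lay at -0.086 (-0.19 to 0.022), and Clic6, an intracellular chloride channel protein of this epithelium, at -0.002 (-0.11 to 0.11).

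The water channel Aqp1 read 10.62 to 10.70 in wild-type and 10.63 to 10.92 in heterozygous arrays, a difference of 0.080 (-0.041 to 0.20). Its null difference, from the same wild-type arrays, was 0.34. The potassium channel genes Kcnj13 (-0.028, -0.15 to 0.091) and Kcne2 (-0.018, -0.14 to 0.098) and the cation channel gene Trpv4 (-0.038, -0.18 to 0.10) also had intervals on both sides of 0. Slc20a2, a phosphate transporter, was 1 of the 2 genes of the list with an unadjusted p under 0.05. It read 8.95, 9.07, 9.04, 8.99 and 9.05 in wild-type and 9.12, 9.17, 9.14, 9.25 and 9.13 in heterozygous arrays, which do not overlap, and differed by 0.14 (0.039 to 0.24; limma adjusted p = 0.778). Null animals differed from the same wild-type arrays by 0.58. The other was Slc4a8, a sodium-driven bicarbonate exchanger (0.14, 0.034 to 0.25), with overlapping arrays. Of all tested genes 6.01% had such a p and 0.813% had no overlap. The glial water channel Aqp4 had the widest interval of the list (-0.050 to 0.69) and read 7.13 in heterozygous array 1 against 5.84 to 6.36 elsewhere; without that array its difference was 0.13 in place of 0.32.

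**Figure D3:**
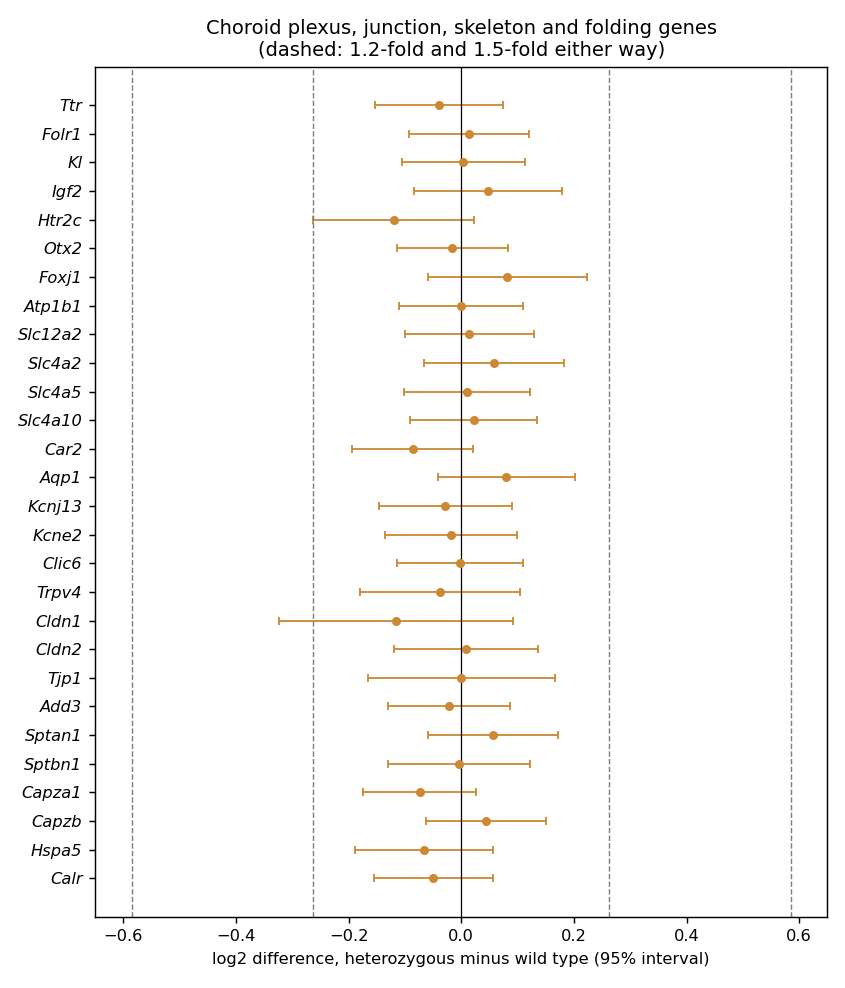
Heterozygous minus wild-type log2 difference (points) with its 95% interval (bars) for genes of choroid plexus epithelium, transport, junctions, the membrane skeleton and protein folding; dashed lines mark 1.2-fold and 1.5-fold either way. The genes were chosen by role with their values known, and members of the same lists whose intervals exclude 0, such as Steap1, Slc20a2, Slc4a8, Slc2a1, Llgl1 and Dnajb9, are not drawn. Every interval drawn includes 0, and that of the claudin Cldn1, which reaches -0.32, is the only one that crosses the 1.2-fold line.

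The proteins that adducin works with showed no called difference at the RNA level. Add3, which encodes gamma-adducin, differed by -0.022 (-0.13 to 0.086), and Add2, which encodes the beta subunit, was below the filter with means of 3.49 in wild-type and 3.56 in heterozygous arrays. The spectrin genes Sptan1 (0.056, -0.059 to 0.17) and Sptbn1 (-0.004, -0.13 to 0.12) lay close to 0. Of 19 tested genes of the adducin and spectrin skeleton 9 had a higher and 10 a lower mean, with a median of -0.004. This list contains Add1, and the single other member at an unadjusted p under 0.05 was the glucose transporter Slc2a1, a binding partner of adducin in erythrocytes. Such a p belonged to 6.01% of all tested genes. Slc2a1 read 9.64, 9.70, 9.83, 9.80 and 9.59 in wild-type and 9.76, 9.87, 9.87, 9.99 and 9.85 in heterozygous arrays, and differed by 0.16 (0.025 to 0.29; limma adjusted p = 0.794) with overlapping arrays; its null difference was 0.58. Sptb, the erythroid beta-spectrin, read 6.94 to 6.98 in wild-type and 6.95 to 7.17 in heterozygous arrays, a difference of 0.11 (-0.0021 to 0.22). Ank2, an ankyrin, had the widest interval (-0.30 to 0.61), with 7.02 in heterozygous array 1 and 5.64 to 6.16 elsewhere.

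Among 37 tested regulators of actin filaments 0 were called, 9 had a higher and 28 a lower heterozygous mean, and the median was -0.056, where all tested genes split into 5095 higher and 4873 lower with a median of 0.002. The median stayed between -0.073 and -0.0485 in all fits that left out 1 array. Unadjusted p-values under 0.05 belonged to the kinase gene Rock1 (-0.23, -0.40 to -0.056), the capping protein gene Capza2 (-0.12, -0.24 to -0.0046) and the formin gene Diaph2 (-0.29, -0.59 to -0.0011), each with overlapping arrays. These are 3 of 37 genes, where 6.01% of all tested genes had such a p. Rock1 read 7.74, 7.83, 7.83, 7.69 and 7.96 in wild-type and 7.34, 7.63, 7.48, 7.71 and 7.75 in heterozygous arrays; without heterozygous array 1 its difference was -0.17. Capza1 and Capzb, which encode the other subunits of the capping protein that shares its filament end with adducin, differed by -0.074 (-0.17 to 0.026) and 0.044 (-0.062 to 0.15).

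Junction and polarity genes were split evenly, 18 higher and 15 lower of 33 tested, with a median of 0.014 and 28 intervals within 1.2-fold. The tight junction scaffold Tjp1 had equal means (-0.17 to 0.17), Cldn2 differed by 0.008 (-0.12 to 0.14) and Cldn1 by -0.12 (-0.32 to 0.091). The smallest p-values of this list were those of the polarity gene Llgl1 (0.15, 0.019 to 0.285) and the scaffold Tjp3 (0.13, 0.015 to 0.24), each with overlapping arrays and a limma adjusted p of 0.794.

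Of 49 tested genes of motile cilia, which drive fluid movement and are built by the multiciliated choroid and ependymal cells, 25 were higher and 24 lower with a median of 0.002. Foxj1, the master regulator of motile cilia, differed by 0.082 (-0.059 to 0.22). At an unadjusted p under 0.05 were Dnaaf3 (0.16) and Mcidas (0.17), higher, and Spef2 (-0.20) and Gmnc (-0.28), lower. Of all tested genes 6.01% had such a p. Gmnc and Mcidas both start the multiciliated programme and differed in opposite directions. For Gmnc, heterozygous array 1 was the lowest of the 10 at 8.07, and without it the difference was -0.15; for Spef2 that array was also the lowest at 7.29, and the difference without it was -0.11.

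The hydrocephalus gene list, drawn from mouse and human disorders, had 40 tested members, 19 higher and 21 lower, with a median of -0.001. Besides Llgl1, which is in both lists, the chromatin remodelling gene Smarcc1 (-0.14, -0.27 to -0.013) and the deubiquitinase gene Cyld (-0.14, -0.27 to -0.0057) had unadjusted p-values under 0.05. Their limma adjusted p-values were 0.794 and 0.803. An unadjusted p under 0.05 belonged to 6.01% of all tested genes.

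Leaving aside gene models without an approved name, the smallest p-value with a higher heterozygous mean belonged to Slc66a1, a lysosomal exporter of cationic amino acids. It read 6.04, 5.95, 5.97, 6.02 and 6.07 in wild-type and 6.28, 6.26, 6.28, 6.31 and 6.13 in heterozygous arrays, so the groups do not overlap although heterozygous array 5 was far below the other 4. The difference was 0.24 (0.13 to 0.35), or 118.3% of the wild-type signal, with a limma adjusted p of 0.778. That adjusted p holds for all of the 24 genes with approved names and the smallest p-values, 12 in each direction.

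Sptlc1, a subunit of the serine palmitoyltransferase that starts sphingolipid synthesis, had heterozygous arrays close to each other. They read 8.07, 8.10, 8.08, 8.07 and 8.08 and the wild-type arrays 7.79, 7.96, 7.90, 7.87 and 7.89, all lower, which gives 0.20 (0.099 to 0.30). Null arrays averaged 0.12 below wild type for this gene. The other higher genes were the Rab GTPase regulator Tbc1d17 (0.24), the mitochondrial ribosome gene Mrps10 (0.32), the exon junction complex gene Pym1 (0.22), the deacetylase gene Hdac11 (0.27), the galactosyltransferase gene B3galt5 (0.26), Tent5a (0.31), the retinaldehyde carrier gene Rlbp1 (0.35), the flotillin gene Flot2 (0.21), the phosphatase gene Dusp28 (0.21) and Spry2 (0.25). Arrays did not overlap for Slc66a1, Tbc1d17, Mrps10, Pym1, Sptlc1 and Dusp28.

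In the lower direction Spred2 and Bckdhb had the smallest p-values. Spred2, an inhibitor of Ras and ERK signalling, read 8.22, 8.10, 8.13, 8.12 and 8.04 in wild-type and 7.89, 7.91, 7.67, 7.93 and 7.77 in heterozygous arrays, with no overlap and a difference of -0.29 (-0.42 to -0.16). Bckdhb, the beta subunit of the branched-chain ketoacid dehydrogenase, read 7.73, 7.59, 7.61, 7.61 and 7.61 in wild-type and 7.32, 7.32, 7.18, 7.39 and 7.50 in heterozygous arrays, also with no overlap and a difference of -0.29 (-0.42 to -0.16). Null animals lay near or above the same wild-type arrays for both, at -0.028 for Spred2 and 0.15 for Bckdhb.

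The remaining 10 lower genes were the Hsp90 co-chaperone Chordc1 (-0.37), the minor spliceosome gene Rnpc3 (-0.28), the nucleotide kinase Cmpk1 (-0.29), Krtap5-3 (-0.34), the histone gene H2bc4 (-0.33), the tRNA methyltransferase gene Trmt5 (-0.23), Ubxn2a (-0.22), the chromatin gene Hmgn3 (-0.27), Mkln1 (-0.19) and Zfp729a (-0.19). H2bc4 resembles other H2B genes and Krtap5-3 other keratin-associated genes, so their probe sets may read more than 1 gene. Arrays overlapped for Chordc1, H2bc4 and Hmgn3 only among the 12.

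The smallest p-value of all belonged to the gene model Gm5771, named here after its values were seen. It read 5.38, 5.38, 5.52, 5.73 and 5.43 in wild-type and 6.04, 6.08, 5.88, 6.08 and 5.86 in heterozygous arrays, which do not overlap, and 5.45 to 5.75 in null arrays. The difference was 0.50 (0.34 to 0.66) with a limma adjusted p of 0.140. Without wild-type array 4 the difference of Gm5771 was 0.56 with an adjusted p of 0.0164, the only gene called in any fit that left out 1 array. Over the alternatives run, the smallest adjusted p of each fit lay between 0.0164 and 0.956. That smallest value need not belong to Gm5771, which the stricter filter left out.

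**Figure D4:**
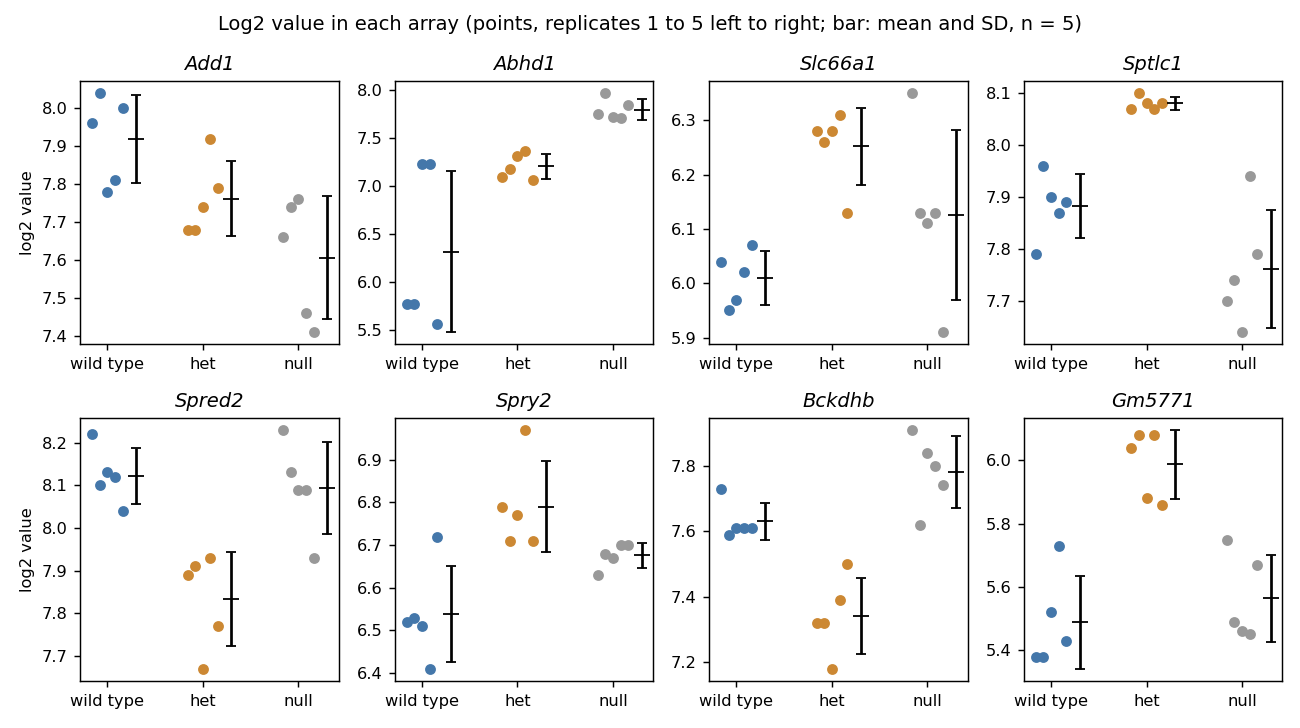
Log2 value of 8 genes in each array, replicates 1 to 5 from left to right within wild type (blue), heterozygous (orange) and null (grey), with the mean and SD of each genotype (n = 5) as bars; each panel has its own axis, which does not start at 0. Heterozygous and wild-type points do not overlap for Slc66a1, Sptlc1, Spred2, Bckdhb and Gm5771 and overlap for Add1, Spry2 and Abhd1, whose wild-type arrays form a high pair and a low group of 3.

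By size, 91 genes differed by more than 1.2-fold and 2 by more than 1.5-fold; without heterozygous array 1 these counts were 50 and 3. Abhd1, a hydrolase-domain gene on chromosome 5 as Add1 is, had the largest difference, 0.89 (0.25 to 1.53; limma adjusted p = 0.778). Its wild-type arrays 1, 2 and 5 read 5.78, 5.78 and 5.57, wild-type arrays 3 and 4 read 7.23 each, and the 5 heterozygous arrays read 7.07 to 7.37, so the difference rests on 3 wild-type arrays. The description number was 432 for the high pair and 429, 429 and 451 for the low arrays. Within number 429 (2 wild-type arrays and 1 heterozygous array) Abhd1 differed by 1.40, and within number 432 (2 of each) by 0.11. Null arrays, all at 7.71 or above, differed from the same wild-type arrays by 1.48.

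Cep290, which encodes a protein of the ciliary transition zone, had the largest negative difference. It read 5.61, 5.52, 5.84, 5.12 and 6.19 in wild-type and 4.40, 4.44, 4.48, 5.55 and 5.17 in heterozygous arrays, with heterozygous arrays 4 and 5 inside the wild-type range. The difference was -0.85 (-1.345 to -0.35; limma adjusted p = 0.778), and the mean of the null arrays was 0.18 above wild type. Levels near 5 lie close to the filter value of 5.3, where log2 differences on arrays are compressed. Cep290 passed the filter mainly through its wild-type arrays, since among heterozygous arrays only array 4 lay above that value. Below Cep290 came Wfdc6a (-0.52), the 5S ribosomal RNA gene n-R5s136 (-0.50), Piga (-0.45), Tcim (-0.42) and Rpl32l (-0.42). Above 0, the genes after Abhd1 were S100b (0.46), Slc12a5 (0.46), Cbln3 (0.45), Adcy1 (0.44) and Gpr37l1 (0.43), neural or glial genes whose differences without heterozygous array 1 were 0.13, 0.066, 0.040, 0.11 and 0.12.

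Spred2 and Spry2 belong to 1 family of ERK pathway inhibitors and differed in opposite directions. Spry2 read 6.52, 6.53, 6.51, 6.41 and 6.72 in wild-type and 6.79, 6.71, 6.77, 6.97 and 6.71 in heterozygous arrays, with wild-type array 5 just above the lowest heterozygous values, and a difference of 0.25 (0.11 to 0.40). Of the 20 tested genes of this pathway list 8 had higher and 12 lower means with a median of -0.016. Spred1 differed by 0.022 (-0.21 to 0.25), Spry1 by -0.044 (-0.19 to 0.099) and the ERK phosphatase gene Dusp6, a transcriptional target of the pathway, by 0.042 (-0.30 to 0.38).

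Around Bckdhb, 24 genes of branched-chain amino acid breakdown and mitochondrial function were tested. At an unadjusted p under 0.05, 2 were higher and 4 lower, the median was -0.015, and arrays did not overlap for 4 of the 24, against 6.01% of all tested genes with such a p and 0.813% without overlap. Hadhb, a subunit of the mitochondrial trifunctional protein of fat oxidation, read 10.53, 10.57, 10.63, 10.43 and 10.34 in wild-type and 10.27, 10.33, 10.27, 10.31 and 10.33 in heterozygous arrays, a difference of -0.20 (-0.32 to -0.073). Trap1, the mitochondrial Hsp90, lay on the other side, at 0.18 (0.068 to 0.29), with heterozygous arrays at 8.58 to 8.76 and wild-type arrays at 8.42 to 8.56. Bckdha, the partner subunit of Bckdhb, differed by -0.008 (-0.18 to 0.17). The list was assembled with these results known, so its counts are no independent support.

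Of 34 tested unfolded protein response genes, which set how much protein the endoplasmic reticulum can fold, 0 were called, 8 had a higher and 26 a lower heterozygous mean, and the median was -0.065, where all tested genes split into 5095 higher and 4873 lower. The median stayed below 0 in every alternative run, between -0.082 and -0.0135. The list mean was 8.61, 8.65, 8.48, 8.49 and 8.52 in wild-type arrays 1 to 5. In heterozygous arrays 1 to 5 it was 8.42, 8.52, 8.52, 8.52 and 8.40. Wild-type arrays 1 and 2, both of description number 429, were thus the highest. Within number 432, heterozygous arrays 3 and 4 lay above wild-type arrays 3 and 4. Those at an unadjusted p under 0.05 were the co-chaperones Dnajb9 and Dnajb11, the chaperone Hyou1 and the disulfide isomerase Pdia3. Dnajb9 read 8.26, 8.35, 8.38, 8.20 and 8.02 in wild-type and 7.66, 8.02, 8.08, 8.04 and 7.89 in heterozygous arrays, a difference of -0.30 (-0.49 to -0.12) with overlapping arrays. These are 4 of 34 genes, against 6.01% of all tested genes, and their limma adjusted p-values lay between 0.778 and 0.803.

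The abundant chaperones of this list were bounded more tightly. Hspa5, the Hsp70 of the endoplasmic reticulum, differed by -0.066 (-0.19 to 0.056) against a null difference of -0.36, Calr by -0.050 (-0.16 to 0.056) against -0.42, and Pdia6 by -0.038 (-0.15 to 0.070) against -0.42. These heterozygous intervals do not reach the null estimates, but both differences use the same wild-type arrays. Xbp1, a transcription factor of the response, read 9.24, 9.30, 8.85, 8.93 and 8.83 in wild-type and 8.75, 9.07, 8.90, 9.03 and 8.40 in heterozygous arrays, with a difference of -0.20 (-0.48 to 0.076). Heterozygous array 5 was the lowest of the 10 for Xbp1 and, at 7.39 and 7.35, for Creld2 and Manf.

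Next to these, cytosolic heat shock and immediate early genes had 3 lower members at an unadjusted p under 0.05 among 23 tested and a median of -0.002. Of all tested genes 2.78% were lower and 3.23% higher with such a p. Dnaja1, an Hsp70 co-chaperone, read 9.71 to 9.85 in wild-type and 9.28 to 9.67 in heterozygous arrays, a difference of -0.22 (-0.38 to -0.068); heterozygous array 1 was the lowest, and without it the difference was -0.16. Chordc1 and Hsph1 (-0.16, -0.33 to -0.0025) were the other 2.

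No gene of the remaining lists was called. Oxidative phosphorylation genes had 32 higher and 40 lower means of 72 tested, a median of -0.010 and 61 intervals within 1.2-fold, with Ndufb10 (-0.20) and Atp5l (-0.17) at an unadjusted p under 0.05. Cholesterol synthesis genes had a median of -0.032 over 23 genes, glucocorticoid response genes -0.032 over 16, and ribosomal protein genes -0.004 over 33; Rps3 (0.17) was the only gene of these 3 lists with an unadjusted p under 0.05. In the retinoid list Rlbp1 and the receptor gene Rxrb (0.14) were higher and the receptor gene Rara lower (-0.18, -0.30 to -0.060), with a median of 0.058 over 13 genes. These 2 higher genes and 1 lower gene had an unadjusted p under 0.05, as did 6.01% of all tested genes. Rara read 5.57 to 5.63 in wild-type and 5.30 to 5.56 in heterozygous arrays, which do not overlap. Such a lack of overlap held for 0.813% of all tested genes.

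Clock genes showed no common direction: 11 of 21 were higher and 10 lower. At an unadjusted p under 0.05, 2 were higher and 1 lower, where 6.01% of all tested genes had such a p. Cirbp, a cold-inducible RNA-binding protein gene of that list, read 7.73, 7.83, 7.90, 7.80 and 7.77 in wild-type and 8.11, 7.79, 8.02, 7.95 and 8.35 in heterozygous arrays, a difference of 0.24 (0.054 to 0.42), with a null difference of 0.80. The repressor gene Ciart differed by -0.39 (-0.75 to -0.041) and the core clock gene Arntl by 0.12 (-0.070 to 0.31). The sources used here give no dissection time, and its part in these values was not tested.

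Interferon response genes had 11 higher and 2 lower means among 13 tested and a median of 0.10. Heterozygous array 5 had a list mean of 7.09, with the other 9 arrays between 6.60 and 6.81. Without that array the median was 0.020, and with the description number as a block it was -0.0070. Rtp4, an interferon-induced gene, read 6.89 in heterozygous array 5 and 5.30 to 5.87 in the other 9.

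Genes beside Add1 on chromosome 5 share the chromosome that carries the altered allele. The 10 nearest tested genes on each side were taken in the gene order of GRCm38.p6. Of these, 16 had a higher and 4 a lower heterozygous mean, with a median of 0.040, and 18 intervals lay within 1.2-fold. All tested genes split into 5095 higher and 4873 lower, with a median of 0.002. Whether the split beside Add1 comes from the altered chromosome was not tested. Mfsd10, a transporter-family gene and the next tested gene to Add1, was the only one with an unadjusted p under 0.05 or without overlap of arrays. Over all tested genes those shares were 6.01% and 0.813%. Mfsd10 read 6.33, 6.24, 6.07, 6.28 and 6.14 in wild-type and 6.45, 6.43, 6.35, 6.39 and 6.34 in heterozygous arrays. The difference was 0.18 (0.057 to 0.30, limma adjusted p = 0.778). Its null difference was 0.28. Tnip2, the nearest on the opposite side, differed by 0.12 (-0.054 to 0.30), and Htt, 3 genes beyond Add1 on the side of Mfsd10, by 0.062 (-0.11 to 0.23).

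A list of 24 genes was chosen for large null differences in both directions; they are not the 24 largest, since Cirbp (0.80) is not in it. Penk, Rimklb, Wif1 and Sult1c2 were below the filter in these 10 arrays, and of the 20 tested 2 were higher and 4 lower at an unadjusted p under 0.05, with 0 called and a median of -0.011, where 6.01% of all tested genes had such a p. The genes were chosen for their null values, so those are given as a description, and both sets of differences share the wild-type arrays. Null arrays 1 and 5 do not match their sex label; leaving them out, an alternative added after the data were seen, is given beside the null differences of 7 of these genes.

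Wfikkn2, which encodes a secreted protein carrying protease inhibitor domains, read 8.05, 8.09, 8.24, 8.54 and 8.04 in wild-type and 7.91, 8.12, 8.41, 8.46 and 8.02 in heterozygous arrays. Its difference was -0.008 (-0.26 to 0.25), next to a null difference of 1.63 (1.40 without null arrays 1 and 5). Nefh, the heavy neurofilament subunit, differed by -0.080 (-0.36 to 0.20) against -1.37 (-1.30 without those arrays). The proline transporter gene Slc6a20a (-0.014, -0.27 to 0.24), the focal adhesion gene Tns4 (0.064, -0.13 to 0.26), the cytochrome oxidase subunit gene Cox7a1 (-0.048, -0.29 to 0.19), the leukotriene synthase gene Ltc4s (0.076, -0.096 to 0.25) and Mrap2 (0.038, -0.16 to 0.24) also had heterozygous intervals within 1.5-fold. Their null differences were 1.09, -0.99, -0.99, -0.86 and -0.73.

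Rlbp1, Abhd1, Chordc1, H2bc4, Ciart and Hsph1 were the 6 members at an unadjusted p under 0.05. Rlbp1 read 5.05, 5.08, 4.99, 5.31 and 4.80 in wild-type and 5.49, 5.16, 5.33, 5.49 and 5.49 in heterozygous arrays; the ranges overlap only through wild-type array 4 and heterozygous array 2. Its difference was 0.35 (0.15 to 0.54; limma adjusted p = 0.778) against 1.45 in null animals (1.44 without null arrays 1 and 5). Rlbp1 passed the filter mainly through its heterozygous arrays, so its wild-type level is near the background. Chordc1 read 8.05, 8.36, 8.18, 7.85 and 8.16 in wild-type and 7.61, 7.88, 7.78, 7.72 and 7.78 in heterozygous arrays, a difference of -0.37 (-0.55 to -0.19) against -0.73. H2bc4 differed by -0.33 (-0.52 to -0.15) against -0.71. Abhd1 had a null difference of 1.48 with and without null arrays 1 and 5.

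For the receptor gene Kit and the imprinted ligand gene Dlk1 the heterozygous intervals left the 1.5-fold range, and for the peroxidase gene Gpx3 the interval stayed within it. Kit lay between -0.11 and 0.62 with heterozygous array 1 at 6.87, Dlk1 between -0.062 and 0.77 with wild-type array 5 at 7.16, and Gpx3 between -0.054 and 0.35. Their null differences were 1.17, 1.11 and 1.35, and without null arrays 1 and 5 they were 1.12, 1.23 and 0.822.

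**Figure D5:**
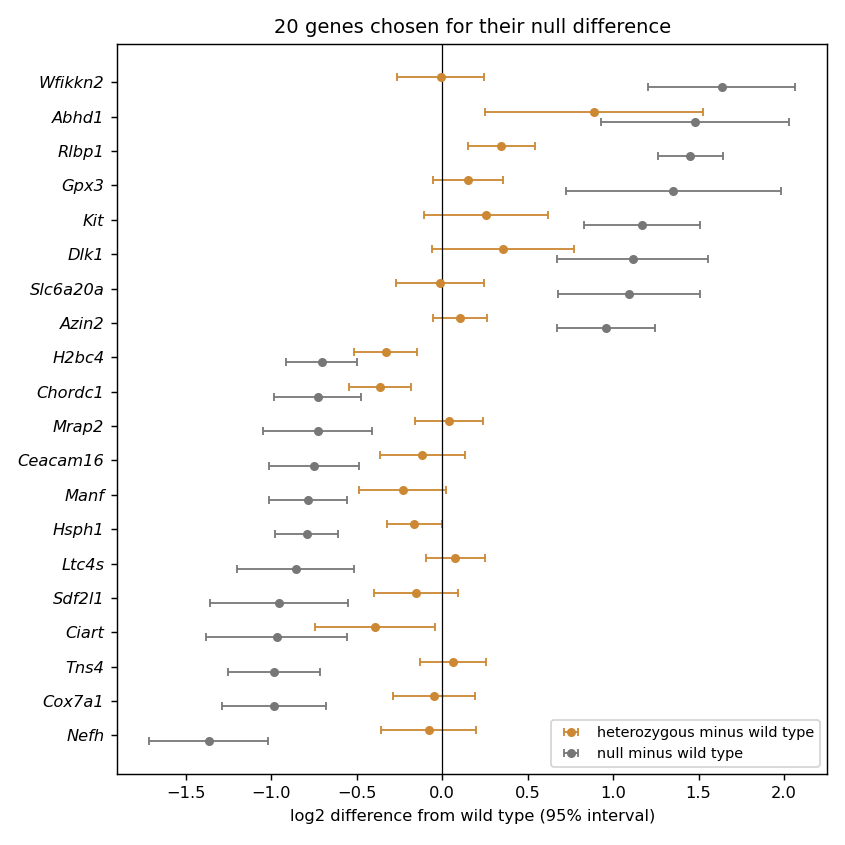
Log2 difference from wild type with its 95% interval for the 20 tested genes of the list chosen for null values, heterozygous (orange, from the 10 arrays) above null (grey, from the fit over 15 arrays); both share the wild-type arrays. Heterozygous points lie between -0.39 and 0.89 and null points between -1.37 and 1.63, and the intervals of the 2 genotypes overlap for Abhd1, Dlk1, H2bc4, Chordc1 and Ciart.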

How the data were processed

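RNA of each animal was hybridised to 1 single-colour whole-transcript array. Per the submitters' processing notes the arrays were processed with Affymetrix Expression Console 1.1 and RMA, a method of background correction, quantile normalization and probe set summary that brings the distributions of the arrays close together (array medians 4.78 to 4.88). The values deposited by the authors are taken to be log2 values; the log base is not stated and was read from their range, 1.57 to 13.89. The sources used here do not give a genome build.

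Names of probe sets come from the annotation of the platform. Of 35556 probe sets 21789 had 1 gene symbol and 1621 several, and 12146 were not listed and stay unnamed; 21698 of the first matched a RefSeq gene table (GRCm38.p6), the source of current names and gene order alone. Each of 19938 genes was read by its brightest probe set on average over the 10 arrays (999 genes had several). The median value of these probe sets in the 10 arrays was 5.3, and 9968 genes above it in at least 5 of the 10 arrays were tested.

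Each gene was fitted over the 10 arrays with lmFit and eBayes of limma 3.58.1 under R 4.3.3 (8 residual and 5.35 prior degrees of freedom), with Benjamini-Hochberg adjustment over all tested genes, a threshold of 0.05 and moderated 95% intervals. Null arrays were left out of this model because arrays 1 and 5 of that group do not match their sex label; null differences come from a fit over all 15 arrays. Add1 was also tested by exact permutation. The procedure was tested on simulated data. The number of arrays limits the precision. Nothing states whether animals were littermates, and the p-values of the main fit treat each animal as independent although some share a description number.

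Genes named are Add1, the 12 smallest p-values in each direction, the 6 largest differences in each direction, the 6 widest and 6 narrowest intervals, the 24 genes chosen for null values and, in each list, up to 4 members by p and the widest interval; gene models without an approved name were replaced by the next gene. Genes named for their role, and Gm5771, were chosen after their values were seen. The members, the 31 gene lists and the tests were chosen with earlier results of these data known. Replicate numbers in the titles were not treated as pairs in the main fit. Deviations of the same-numbered arrays correlated between -0.035 and 0.15, which does not settle whether the animals were paired. Alternatives covered the arrays in the fit, the filter, scaling, variance model, block or covariate, probe sets and leaving out each array.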

Additional observations from a re-analysis of the deposited data

Results flagged for a closer look

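For each gene named and each list mean, an array was set apart when it lay farther from the other 4 arrays of its genotype than Dixon's 95% critical value allows. Of 522 groups of 5 arrays examined, 67 held such an array, covering 62 genes and lists, where chance gives about 1 in 20. Of the 67, 29 concerned heterozygous array 1. Many of these genes were chosen for wide intervals or as markers of the same cells, so the flags are not independent of each other.

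In heterozygous array 1 the high values were those of neural and glial genes. Among neuronal genes it read 7.22 for Adcy1, 7.83 for Calb1, 8.40 for Car8, 7.97 for Cbln1, 7.91 for Cbln3, 7.80 for Gabra6 and 6.96 for Gad1. Reelin (Reln) read 7.36 there, the neuronal chloride exporter Slc12a5 7.35, the synaptic vesicle gene Syt1 7.67, Zic1 8.81 and Ank2 7.02. Myelin and oligodendrocyte genes read 7.99 (Cnp), 7.01 (Mag), 8.36 (Mbp), 6.69 (both Mobp and Mog) and 6.23 (Olig1). Glial genes read 10.37 (Aldoc), 7.58 (Gpr37l1), 7.43 (S100b) and 8.25 (Slc1a3), and the metallothionein gene Mt2 read 9.20. The list means set apart were 8.28 for astrocytes and radial glia, 7.66 for cerebellar neurons, 7.50 for neurons and 7.23 for oligodendrocytes. Low in that array were Dnaja1 (9.28) and Plin4 (5.45).

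In wild-type array 5 the high values were those of the stromal genes Fn1 (9.03), Mgp (8.36) and Slc6a13 (7.87), of Nnat (8.30), Aldh1a1 (7.90), Cdh1 (6.90), the vascular receptor gene Flt1 (6.45) and the complement genes C1qa (6.65) and C1qc (6.40). The macrophage list mean was 6.09 there, and Ubtd1 was low (5.48 against 5.51 in each of the other 4).

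Wild-type array 4 was high for the glial genes Cnp (7.40), Gpr37l1 (6.31) and Mog (6.01) and for Ndfip2 (8.25), and low for Capzb (8.05) and for the mean of the actin regulators (8.14). Wild-type array 3 was high for Cmpk1 (8.44) and Tbc1d17 (7.31) and low for Egr3 (5.44), Rdh5 (9.72) and Slc12a5 (5.08). Wild-type array 2 was high for Atp1b1 (11.13), Cgn (7.31), Tap1 (5.86) and Tns4 (6.68), and wild-type array 1 for Bckdhb (7.73) and the mean of the cholesterol synthesis genes (7.94).

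Among the other heterozygous arrays, array 2 was low for Csnk1e (6.56) and array 3 for Stk36 (7.15). Array 4 was high for Dynlrb2 (7.59), Fbln1 (7.88) and Slc16a8 (8.66) and low for Glul (10.57). Array 5 was high for C1qc (6.39) and Dnaaf3 (8.09) and low for Sdf2l1 (8.16) and Slc66a1 (6.13). For Slc66a1 the outlying array lay on the side of wild type, and for Cmpk1 and Bckdhb the outlying wild-type array lay away from the heterozygous arrays.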

How the results depend on the processing

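No gene was called in any alternative except 1, Gm5771, without wild-type array 4, so that leaving out 1 array gave 0 to 1 calls. The Add1 difference lay between -0.1955 and -0.1255 over the fits that left out 1 array, and passed an exact permutation test after median centring (-0.164, p = 0.0317) and repeated quantile normalization (-0.144, p = 0.0476), but not with the description number as a block (-0.107, p = 0.389). The share of genes with non-overlapping arrays was 1.29% after repeated quantile normalization and 1.21% to 1.93% with 1 array left out, where fewer arrays have to separate. The circadian list median was -0.042 with all named probe sets and -0.048 to 0.0315 with 1 array left out, and the median of the genes beside Add1 was 0.017 to 0.0588; the cause was not tested. The share of intervals within 1.2-fold ran from 69.2% (description number as a block, 7 arrays) to 88.4% (stricter filter), apart from the 99% intervals. With the replicate block, 0 genes were called, 676 had an unadjusted p under 0.05, 81.2% of intervals lay within 1.2-fold, and the Add1 difference was -0.156 (permutation p over 32 sign flips = 0.1875). In 3 of 5 numbers the wild-type array correlated best with the heterozygous array of its own number, which does not settle whether the animals were paired. The count at an unadjusted p under 0.05 was 380 with all 15 arrays, 1150 without the filter and 341 with the stricter one. Of 231 genes followed, 159 kept their sign in all alternatives and 72 changed it in some. Lists held at a median near 0 changed sign more easily, and the neuron, cerebellar neuron and oligodendrocyte medians turned below 0 without heterozygous array 1 (-0.105, -0.0365 and -0.010).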
